A study of Homo sapiens with 6 samples.

Results

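The 10 genes described here encode proteins that bring cystine into the cell and that make, use, recycle or export glutathione: SLC7A11, GCLC, GCLM, GSS, GSR, GPX1, GSTP1, MGST1, GLRX and ABCC1. They were taken by name, through the Ensembl identifiers of a deposited table of 58299 genes, from a list of names drawn up with earlier results of these data known. All 10 passed the filter on low counts, which kept 15575 genes. RNA was sequenced in AC16 cells, a human line made by fusing adult ventricular heart cells with transformed fibroblasts. By the treatment label, the 3 treated libraries came from cells that had 24 h of CDDO-Me at 100 nM and then 48 h of doxorubicin at 100 nM. The series' design text joins both drugs with a plus sign and gives no order, so whether they were given in sequence or together is not settled; the label is followed here. The 3 DMSO libraries came from cells kept in 0.1% DMSO, and RNA was taken at 72 h in either group. It is not clear from the labels whether CDDO-Me was removed before doxorubicin, or whether treated cells also had DMSO. With no single-drug group analysed here, the effects of CDDO-Me and doxorubicin cannot be told apart.

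Glutathione is a tripeptide of glutamate, cysteine and glycine, and the main low-molecular-weight thiol of animal cells. Cystine enters through the SLC7A11 antiporter in exchange for glutamate and is reduced to cysteine. Glutamate-cysteine ligase, a pair of GCLC and GCLM, makes the first and rate-limiting bond, and GSS adds glycine. Peroxidases oxidise glutathione when they reduce peroxides, GSR reduces it again with NADPH, transferases attach it to electrophiles, and ABCC1 pumps glutathione and its conjugates out of the cell. Several of these genes are classical targets of NRF2, a transcription factor that is released when agents such as CDDO-Me (bardoxolone methyl) modify its inhibitor KEAP1. Doxorubicin, an anthracycline, poisons topoisomerase II and cycles between quinone forms that generate reactive oxygen species, and the heart is the organ in which its toxicity limits dosing.

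NRF2 binds with small MAF proteins to a sequence whose core is TGACNNNGC. This core was searched on both strands in RefSeq promoters (GRCh38.p14) of 300 bases, most of them before the start. It was present in 13.3% of 35116 promoters. Of the 10 genes, 6 had a promoter in the table (SLC7A11, GSS, GSR and ABCC1 had none). The core stood before the RefSeq start in GCLM and GSTP1. It also stood before 1 of 3 RefSeq starts of SLC3A2, which encodes the heavy chain that SLC7A11 needs at the plasma membrane. The 3 matches are shown with their flanks, 5′ to 3′ on the strand of the gene, with the core in capitals; in GCLM the core is on the opposite strand. The exons counted in the deposited table reach further upstream than these RefSeq starts, and cover 29 of the 29 bases shown for GSTP1, 11 of 29 for GCLM and 13 of 29 for SLC3A2.
GCLM, chr1:93909446-93909474, minus strand: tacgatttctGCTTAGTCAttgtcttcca
GSTP1, chr11:67583736-67583764, plus strand: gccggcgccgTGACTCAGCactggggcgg
SLC3A2, chr11:62881652-62881680, plus strand: cgagggtgggTGACTCAGCgtcctccttc

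The match of GCLM begins 34 bases before the RefSeq start and reads TGACTAAGC on its own strand. Those of GSTP1 and SLC3A2 begin 66 and 37 bases before theirs and are both TGACTCAGC, a form found in 0.561% of promoters. These letters also contain TGACTCA, the site of AP-1 factors. GPX1, GCLC and GLRX held no match in the window, and of the 3 windows of MGST1 one did. That match lies behind its own RefSeq start and upstream of the windows of the other 2 starts. A pair of stretches without the core, from a ligase gene and a transferase gene, is shown for comparison.
GCLC, chr6:53545130-53545229, minus strand: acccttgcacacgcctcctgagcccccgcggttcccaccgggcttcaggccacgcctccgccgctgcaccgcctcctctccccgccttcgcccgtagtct
MGST1, chr12:16347545-16347644, plus strand: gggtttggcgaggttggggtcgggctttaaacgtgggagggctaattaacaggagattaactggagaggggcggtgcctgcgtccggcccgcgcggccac

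A match is a string of letters in one window of 300 bases, and sequence outside the windows was not searched; binding was not measured.

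Library totals were 19732013 to 20193957 counts in the treated and 17150259 to 19387496 in the DMSO libraries. The 10 genes together took 0.173% to 0.175% of the counts in treated libraries, against 0.0878% to 0.0888% in DMSO libraries. The labels do not state that replicates were separate cultures, so p-values measure only the spread between libraries of a group, and that spread may be technical. Of 12 contractile and other marker genes of cardiomyocytes, none passed the filter on low counts, TNNI3 was at 0 in all 6 libraries and the highest count of any of them in a library was 16. Their summed level was 1.18 to 2.95 CPM in treated and 0.363 to 0.866 CPM in DMSO libraries. All 7 fibroblast markers were tested and fell, with a summed level of 5220 to 5615 CPM in treated and 13920 to 15170 CPM in DMSO libraries. Leukocyte markers summed to 3.95 to 4.77 CPM in treated and 1.33 to 1.68 CPM in DMSO libraries, with 1 of 2 tested genes called higher. Endothelial markers summed to 11.4 to 12.1 CPM in treated and 21.6 to 24.4 CPM in DMSO libraries, but of 4 tested only TEK was called lower, and PECAM1 and KDR were called higher (log2 changes of 1.96 and 0.77, SE 0.44 and 0.32). Both had few counts. PECAM1 had 25 to 40 in treated and 2 to 15 in DMSO libraries, and KDR had 34 to 45 and 10 to 25. Smooth muscle markers summed to 121.5 to 126.2 CPM in treated and 254.0 to 276.2 CPM in DMSO libraries. Of these, TAGLN and CNN1 were called lower, while ACTA2 and MYH11 were called higher (2.81 and 1.94). MYH11 had only 37 to 64 counts in treated and 7 to 12 in DMSO libraries. Exons of ACTA2-AS1 and FAS cover 30.1% of the exon bases of ACTA2. The part of these shifts in the results below was not tested, and in bulk RNA fewer cells of a kind and less RNA per cell cannot be told apart.

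Of the 10 genes, 9 rose in treated cells and 1, ABCC1, fell slightly. A gene was called at a Benjamini-Hochberg adjusted p below 0.05 in edgeR's quasi-likelihood test over all tested genes; by that rule 32.3% of tested genes were higher and 31.2% lower. Higher genes made up 50.8% of all calls, and 63.8% with scaling by total counts only, under which the median change of all tested genes was 0.15 on the log2 scale, against 0.02 with TMM. The median log2 change of the 10 genes was 0.95. Increases of at least 2-fold were called in 5 of the 10 genes, against 10.9% of all tested genes. In each of the 9 genes that rose, the lowest treated library lay above the highest DMSO library, which was so in 34.1% of tested genes.

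**Figure D1:**
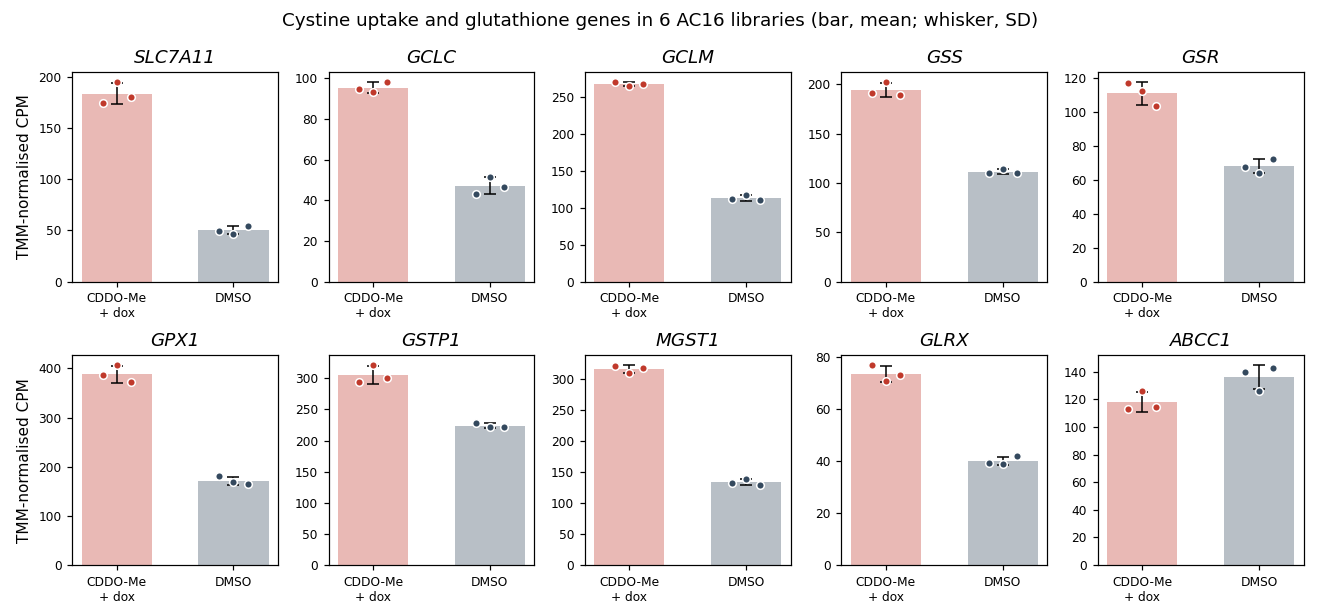
TMM-normalised CPM (counts scaled to library size, y axis) of each gene in the 3 treated libraries (red, left) and the 3 DMSO libraries (grey, right); points are libraries, bars means and whiskers SD. The treated points lie above all DMSO points in 9 panels, and in the ABCC1 panel the groups touch at 126 CPM.

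Of the genes described here, that of the cystine antiporter changed most in transcript level. SLC7A11 (ENSG00000151012, GRCh38 chromosome 4, 138164097 to 138242349, minus strand) encodes the transport subunit of the cystine/glutamate antiporter. It had 174.7, 194.8 and 180.2 CPM in the treated libraries, against 49.9, 46.3 and 54.0 CPM in the DMSO libraries. The groups were far apart, and treated replicate 2 was the highest library. The log2 change was 1.87 (SE 0.058), a 3.66-fold increase (edgeR adjusted p = 1.27e-37), and 4.72% of tested genes had a larger one. Exons of the antisense gene SLC7A11-AS1 cover 8.97% of the exon bases of SLC7A11, and the libraries carry no strand. SLC7A11-AS1 had 18 to 30 counts in treated and 2 to 4 counts in DMSO libraries, against 3626 to 3959 and 766 to 997 counts of SLC7A11 itself.

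The heavy chain SLC3A2, which serves other amino acid transporters as well, rose too. It stood at 934 ± 47.9 CPM in treated and 340.3 ± 9.33 CPM in DMSO cells (SD, n = 3 each), a log2 change of 1.46 (SE 0.047; edgeR adjusted p = 8.83e-37). Per kilobase of exon, the ratio of SLC7A11 to SLC3A2 was 0.0950, 0.117 and 0.105 in treated libraries, against 0.0762, 0.0743 and 0.0864 in DMSO libraries. This pair was set side by side after its values were seen and its ratio was not tested.

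Genes of both steps of synthesis rose, with larger log2 changes at the first. GCLM (ENSG00000023909, chromosome 1, 93885205 to 93909456, minus strand), the modifier subunit of the ligase, had 270.6, 264.9 and 267.9 CPM in treated libraries and 112.2, 117.8 and 110.6 CPM in DMSO libraries. Its treated libraries lay within 6 CPM of each other and well above every DMSO library. The log2 change was 1.24 (SE 0.049; edgeR adjusted p = 5.77e-32).

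GCLC (ENSG00000001084, chromosome 6, 53497341 to 53616970, minus strand), the catalytic subunit, had 94.7, 93.2 and 98.3 CPM in treated and 43.1, 51.5 and 46.8 CPM in DMSO libraries. No library of one group came near the other, although the DMSO libraries were spread more widely than the treated ones. The log2 change was 1.02 (SE 0.062; edgeR adjusted p = 8.99e-23). Antisense or overlapping genes cover 6.2% of its exon bases and had at most 13 counts in any library.

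The ligase subunits were unequal in transcript level, and GCLM had the larger estimated log2 change. Per kilobase of exon, the ratio of GCLM to GCLC was 4.56, 4.54 and 4.35 in treated libraries, against 4.15, 3.65 and 3.77 in DMSO libraries. Every treated library had a higher ratio than every DMSO library. The mean ratio was 4.48 ± 0.12 in treated and 3.86 ± 0.26 in DMSO libraries (SD, n = 3 each), a log2 difference of 0.22. A two-sided exact permutation test gave p = 0.1, the smallest that this test can give with 3 against 3 libraries, so it cannot fall below 0.05. The ratio uses counts of both genes from the same library and is free of the scaling between libraries. Its level depends on the annotated lengths, but the log2 difference does not.

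GSS (ENSG00000100983, chromosome 20, 34928433 to 34956027, minus strand), glutathione synthetase, had 191.4, 202.6 and 189.4 CPM in treated and 110.2, 114.3 and 110.5 CPM in DMSO libraries. Here too the groups were separate, with a log2 change of 0.80 (SE 0.050; edgeR adjusted p = 5.75e-22).

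Transcripts of enzymes that turn glutathione over also rose. GPX1 (ENSG00000233276, chromosome 3, 49357171 to 49358600, minus strand), a selenium-containing peroxidase of cytosol and mitochondria that reduces hydrogen peroxide, had 386.6, 406.8 and 371.7 CPM in treated libraries. In DMSO libraries it had 180.6, 169.5 and 164.6 CPM. The log2 change was 1.18 (SE 0.049; edgeR adjusted p = 5.71e-31), and treated and DMSO libraries did not overlap. Its processed pseudogene GPX1P1 had 871 counts in the treated and 287 in the DMSO libraries together, against 24168 and 8987 counts of GPX1, and reads of such copies could be split between them.

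GSR (ENSG00000104687, chromosome 8, 30678061 to 30727999, minus strand), the reductase that restores reduced glutathione, had 117.0, 112.3 and 103.6 CPM in treated and 67.4, 64.2 and 72.4 CPM in DMSO libraries. Its treated libraries lay above all DMSO libraries, with the widest relative spread among the treated libraries of the genes that rose. The log2 change was 0.70 (SE 0.058; edgeR adjusted p = 6.86e-17), smaller than those of GPX1 and the ligase genes. GLRX (ENSG00000173221, chromosome 5, 95751319 to 95823005, minus strand), the cytosolic glutaredoxin that removes glutathione from protein thiols, had 76.9, 71.0 and 73.0 CPM in treated and 39.4, 38.7 and 41.9 CPM in DMSO libraries. Its groups were separate, with a log2 change of 0.88 (SE 0.063; edgeR adjusted p = 2.94e-19).

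The 2 transferases rose by unequal amounts, a difference that was not tested. MGST1 (ENSG00000008394, chromosome 12, 16347142 to 16609259, plus strand), a membrane-bound transferase with peroxidase activity, had 321.6, 309.3 and 318.0 CPM in treated and 132.8, 139.6 and 129.7 CPM in DMSO libraries. The groups were widely separated, with a log2 change of 1.24 (SE 0.049; edgeR adjusted p = 3.28e-32). GSTP1 (ENSG00000084207, chromosome 11, 67583595 to 67586656, plus strand), the cytosolic pi-class transferase, had 293.9, 321.3 and 300.2 CPM in treated and 228.8, 221.9 and 221.3 CPM in DMSO libraries. Its log2 change was 0.45 (SE 0.047; edgeR adjusted p = 1.37e-12), the smallest of the 9 increases, and 24.7% of tested genes had a larger one. Tested against a 1.5-fold change with glmTreat it was not called (edgeR adjusted p = 1; 5.50e-19 to 1 over the alternatives).

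ABCC1 (ENSG00000103222, chromosome 16, 15949577 to 16143074, plus strand), the efflux pump MRP1, which also exports anthracyclines, was the exception. It had 113.1, 126.4 and 114.4 CPM in treated and 139.8, 126.2 and 142.4 CPM in DMSO libraries. Treated replicate 2 and DMSO replicate 2 had almost the same level, so the groups overlapped. The log2 change was -0.21 (SE 0.054; edgeR adjusted p = 6.46e-04). With scaling by total counts only it was -0.08 and not called (edgeR adjusted p = 0.179; 5.43e-05 to 1 over the alternatives).

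**Figure D2:**
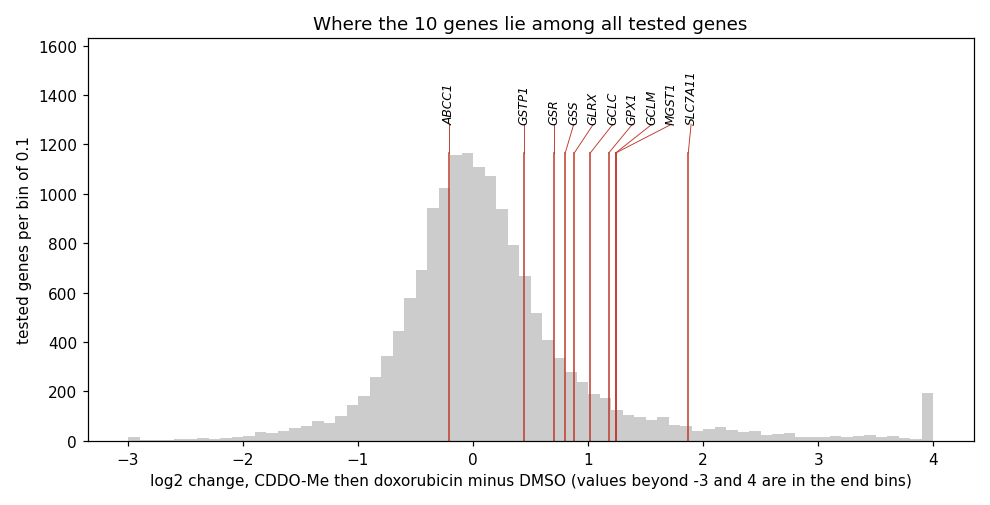
Distribution of the log2 change (x axis; treated minus DMSO) over 15575 tested genes, as genes per bin of 0.1 (y axis), with the 10 genes marked in red. The 9 genes that rose lie between 0.45 and 1.87 on the right flank, and ABCC1 lies at -0.21, just left of the centre.

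Levels can be compared between genes when counts are divided by exon length. In CPM per kilobase, GPX1 was the highest of the 10 genes in both groups, at 271.6 ± 12.3 in treated and 120.0 ± 5.73 in DMSO cells (SD, n = 3 each). GSTP1 followed at 159.7 ± 7.50 in treated and 117.2 ± 2.19 in DMSO cells. The ranges of GPX1 and GSTP1 overlapped in DMSO libraries and were separate in treated libraries. GPX1 held 42.4% of the summed per-length level of the 10 genes in treated cells, against 34.6% in DMSO cells, and GSTP1 held 24.9% against 33.8%.

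In treated cells, GCLM (49.4 CPM per kilobase), MGST1 (42.5), GSS (31.5) and GSR (29.5) came next, and of these neighbours only GSS and GSR overlapped in range. In DMSO cells GCLM (20.9) stood alone, and GSR, GSS, MGST1 and ABCC1 were level at 18.0 to 18.1 CPM per kilobase, each overlapping the next. SLC7A11 moved most in this order. It was lowest at 5.19 ± 0.40 in DMSO cells, not separate from GCLC at 5.45 ± 0.48, and the seventh at 19.0 ± 1.08 in treated cells, above ABCC1 at 15.6 ± 0.97 with no overlap. GLRX and GCLC had the lowest levels in treated cells (11.3 and 11.0) and overlapped. The summed level of the 10 genes was 641 ± 20.9 in treated and 347 ± 6.95 CPM per kilobase in DMSO cells. Exon length here is that of all annotated exons of a gene, which can exceed the length of the transcript a cell makes.

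**Figure D3:**
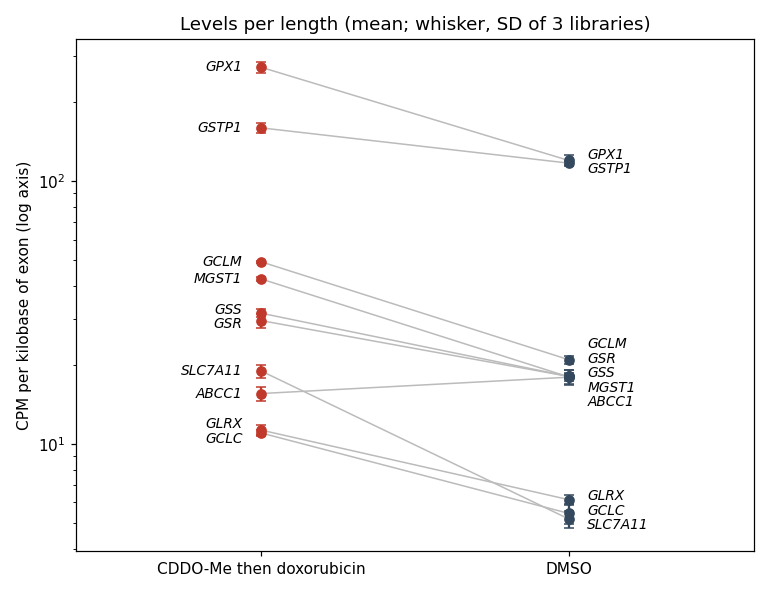
Mean CPM per kilobase of exon (log y axis) of the 10 genes in treated cells (left) and DMSO cells (right); whiskers are SD of 3 libraries and grey lines join the same gene. GPX1 and GSTP1 share a level in DMSO cells and part in treated cells, and SLC7A11 is at the bottom in DMSO cells and above ABCC1 in treated cells.

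The other listed glutathione genes were more mixed. Of 54 further genes in 6 lists, 49 were tested, and 22 were higher (44.9%), 14 lower (28.6%) and 13 not called, and the median log2 change was 0.12. Among all tested genes 32.3% were higher and 31.2% lower, so the share of higher genes was somewhat larger here and that of lower genes similar. The counts of each list below are to be read beside these shares. These lists and the genes described above were all chosen with earlier results of these data known. The contrast between them can therefore come from the choice of genes, and it is not independent evidence about the pathway.

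In precursor supply, 5 of 11 genes were higher and 2 lower. Besides SLC3A2, the largest changes were in SLC1A1, a transporter of glutamate and cysteine, which fell to 21.0 ± 0.54 CPM in treated cells, against 36.4 ± 1.59 CPM in DMSO cells (log2 change -0.79). CTH, the enzyme that releases cysteine from cystathionine, rose to 11.0 ± 0.84 CPM, against 7.24 ± 1.04 CPM in DMSO cells (log2 change 0.61).

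In degradation, 6 of 9 tested genes were higher and 1 lower. GGT1, a gamma-glutamyltransferase that cleaves glutathione outside the cell, had 7.57 ± 1.25 CPM in treated and 0.896 ± 0.13 CPM in DMSO cells (log2 change 3.07, SE 0.23). GGT1 belongs to a family with near-identical copies, and the counting could split reads between them. CHAC1, which degrades glutathione in the cytosol, had 63.4 ± 0.90 CPM in treated and 12.1 ± 0.99 CPM in DMSO cells (log2 change 2.40, SE 0.080). Both log2 changes lie above that of SLC7A11 by more than their SEs, a difference between genes that was not tested. The related CHAC2 was lower (log2 change -0.34), and was not called without DMSO replicate 3 (-0.27, edgeR adjusted p = 0.0727), without treated replicate 2 (-0.20, edgeR adjusted p = 0.15) or with scaling by total counts only (-0.21, edgeR adjusted p = 0.117). It also missed an adjusted p of 0.01 (edgeR adjusted p = 0.0104) and was not called with glmTreat (edgeR adjusted p = 1).

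The other peroxidases were divided. Of 5 tested, 2 were higher, like GPX1, and 3 lower (40% and 60%, against 32.3% and 31.2% of all tested genes). GPX7 (3.83 ± 0.44 CPM in treated and 9.85 ± 0.26 CPM in DMSO cells, log2 change -1.36) and GPX8 (96.6 ± 3.26 and 137.4 ± 9.87 CPM, -0.51), both enzymes of the endoplasmic reticulum, fell. GPX4, which reduces lipid peroxides in membranes, had 99.3 ± 3.23 CPM in treated and 129.3 ± 10.6 CPM in DMSO cells (log2 change -0.38, SE 0.055). GPX3, the secreted form, rose (11.0 ± 1.12 and 5.95 ± 0.38 CPM, log2 change 0.88). The other increase, a small one, was in PRDX6, a peroxiredoxin that uses glutathione (271.7 ± 15.9 and 238.2 ± 1.33 CPM, log2 change 0.19, SE 0.048).

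Among the other transferases, 4 of 12 tested genes were higher (33.3%) and 4 lower (33.3%), near the 32.3% and 31.2% of all tested genes. The largest changes, given next, were increases, while the log2 changes of the list reached down to -0.85. The omega-class genes GSTO2 (3.22 ± 0.28 CPM in treated and 0.855 ± 0.17 CPM in DMSO cells, log2 change 1.90) and GSTO1 (142.2 ± 5.23 and 69.4 ± 2.33 CPM, 1.04) rose, as did the microsomal MGST2 (9.61 ± 0.75 and 3.42 ± 0.35 CPM, 1.49). MGST2 and GSTO1 therefore stood nearer to MGST1 in change than to GSTP1.

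Glutaredoxins and glyoxalases were 2 higher and 3 lower of 6. HAGH (glyoxalase 2; log2 change 0.89) and the mitochondrial glutaredoxin GLRX2 (0.27) rose, and GLO1 (glyoxalase 1; -0.29) fell. In transport, 3 of 6 genes were higher and 1 lower. The pump genes ABCC3 (14.9 ± 2.19 CPM in treated and 5.73 ± 0.60 CPM in DMSO cells, log2 change 1.38) and ABCC2 (3.20 ± 0.53 and 1.69 ± 0.49 CPM, 0.93) rose, and ABCC4 (26.5 ± 0.84 and 42.5 ± 1.97 CPM, -0.68) fell.

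**Figure D4:**
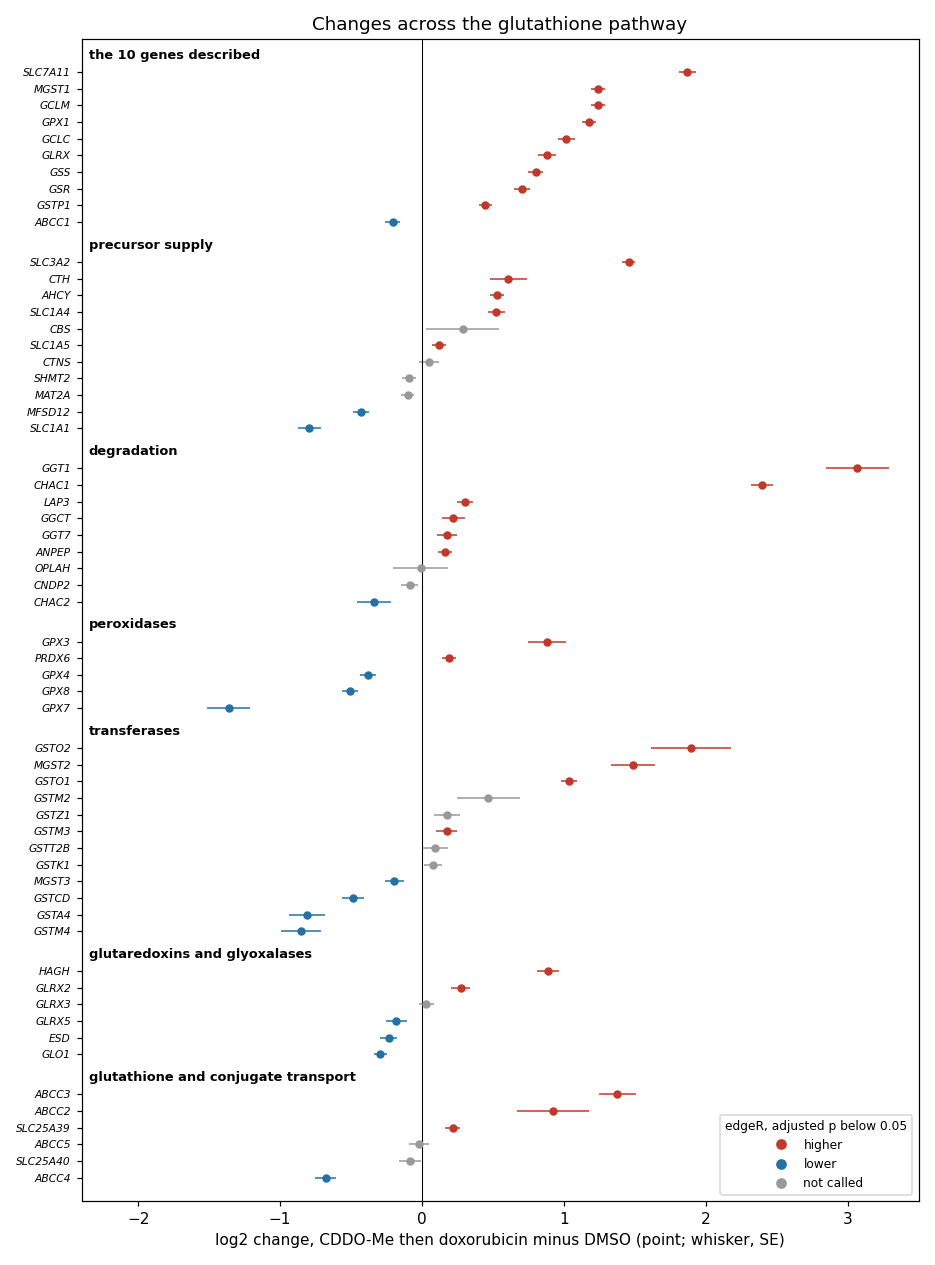
Log2 change (x axis; treated minus DMSO) of the 10 genes and of 49 other tested glutathione genes (y axis, grouped by role); points are edgeR estimates, whiskers SE, and colour gives the call. The 10 genes lie to the right of 0 except ABCC1, while each other group holds genes on both sides. All groups were chosen with earlier results of these data known.

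For comparison, 14 of 16 NRF2 targets outside glutathione metabolism were higher and 1 lower, their median log2 change was 1.01, and HMOX1 (4.33) and OSGIN1 (3.21) changed most. Of 12 targets of ATF4, a stress-induced transcription factor that also acts on SLC7A11 and CHAC1, 11 were higher and 1 was not called, with a median of 1.75, led by DDIT3 (2.81) and SESN2 (2.75). CHAC1 is on this list and also on that of degradation. Among all tested genes 32.3% were called higher. Exons of other genes, among them MARS1 and MBD6, cover 39.6% of the exon bases of DDIT3. Transcripts of the regulators had smaller log2 changes. NFE2L2, which encodes NRF2, had a log2 change of 0.07 and KEAP1 one of -0.09, and neither was called, while BACH1, a repressor at NRF2 sites, rose by 0.23 and ATF4 by 0.17 on the log2 scale. BACH1 (edgeR adjusted p = 2.46e-04) and ATF4 (edgeR adjusted p = 0.0012) were called higher, but neither was with glmTreat against a 1.5-fold change. Exons of other genes cover 20.9% of the exon bases of NFE2L2. The call of NFE2L2 depended on the scaling, and that of KEAP1 on 1 library. NFE2L2 was called higher with upper-quartile scaling (0.12, edgeR adjusted p = 0.0302) and when libraries were scaled by their totals alone (0.20, edgeR adjusted p = 4.78e-04; 4.78e-04 to 1 over the alternatives). KEAP1 turned to 0.038 with total counts only (edgeR adjusted p = 0.554), and was called lower without DMSO replicate 3 (-0.14, edgeR adjusted p = 0.0437; 0.0437 to 1 over the alternatives). The NRF2 and ATF4 lists were drawn up with earlier results of these data known, so their counts are not independent evidence of a direction.

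The profiles most like that of SLC7A11 and GCLM were sought among 10865 other genes of at least 5 CPM on average. The measure was the root mean square distance over 6 libraries in log2 CPM, relative to each gene's own DMSO mean. Nearest to GCLM was MGST1, at a distance of 0.0094, ahead of TRIAP1 (0.029) and VEGFA (0.029). Nearest to SLC7A11 were CFAP251 (0.047), COBLL1 (0.057) and WHRN (0.067), with log2 changes of 1.90, 1.90 and 1.90. With only 2 groups, such a distance mostly reflects the size of the change.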

How the data were processed

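Per the labels' protocols, libraries were poly(A)-selected and unstranded (TruSeq). The deposited table gives raw counts per Ensembl gene with exon coordinates and lengths. Alignment with STAR to GRCh38 and counting with featureCounts (Subread) are named in the submitters' processing notes, along with SAMtools. The annotation release and counting options are not given in the sources used here. Symbols came from a gene name table and GENCODE v29.

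Genes were filtered with filterByExpr (minimum count 10), scaled by TMM and tested with edgeR 4.0.16 (glmQLFit, glmQLFTest; R 4.3.3), with Benjamini-Hochberg adjustment over 15575 genes and a threshold of 0.05. The SE was obtained from the log2 change and the F statistic. Chi-square over degrees of freedom was 2.84 to 3.77 within groups, so no library was counted as a repeat of another. Exon overlap used bedtools 2.31.1.

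Members and lists were chosen with earlier results of these data known. Named were all members, 7 fixed genes, up to 3 called genes per glutathione list with the largest change (mean of at least 1 CPM), 2 per NRF2 and ATF4 list, and 3 nearest profiles each. PRDX6 was added so that every tested peroxidase is named. The result of 1 listed gene is not reported here and is left out of the list counts. Alternatives changed the scaling (RLE, upper quartile, total counts), the filter (none, or 1 CPM in at least 3 libraries) or the tool (DESeq2 1.42.0, limma-voom 3.58.1), or used a replicate block, an adjusted p of 0.01, glmTreat and leaving out each library.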

Additional observations from a re-analysis of the deposited data

How the results depend on the processing

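The 9 increases among the 10 genes were called under 15 of 16 alternatives, and only GSTP1 was lost, under glmTreat against 1.5-fold. The log2 change stayed within 1.81 to 2.0 for SLC7A11, 0.95 to 1.15 for GCLC and 1.21 to 1.37 for GCLM. ABCC1 remained lower under all 16, and 0 members were called lower with total counts only or with glmTreat (0 also at an unadjusted p below 0.05 in either edgeR fit). DESeq2, which used its own scaling and tested against no change, called 1 member lower. KEAP1 reversed with total counts only (0.038, edgeR adjusted p = 0.554; not called in the main analysis). With glmTreat, which asks for more than 1.5-fold, 1852 genes were called higher and 1141 lower of all tested genes, and 9 higher and 3 lower of the glutathione lists. Leaving out each library in turn gave 4709 to 4960 genes higher and 4574 to 4735 lower, 9 members higher and 1 lower each time, 18 to 23 list genes higher and 12 to 15 lower, and a log2 difference in the ratio of GCLM to GCLC of 0.18 to 0.27. Deviations of same-numbered libraries from their group means had correlations of -0.02 to -0.01 over all tested genes. With 3 libraries per group, this cannot exclude that a number marks a shared culture or day. The replicate block left 9 members higher and 1 lower, with 4892 genes higher and 4761 lower of all tested genes. With pairs, the ratio difference of 0.22 had an exact p = 0.25, the smallest that 3 pairs allow. Depth limits low-count genes most: GSTO2 and ABCC2 had SEs of 0.28 and 0.25, against 0.047 to 0.063 in the 10 genes.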
